A study of Drosophila melanogaster with 12 samples.

Results

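Gene expression of γ neurons of the Drosophila mushroom body was compared between 12 h and 24 h after puparium formation, when their larval axon branches are being pruned and when adult branches begin to grow out. The comparison used 6 RNA libraries, 3 of each time, lettered A, B and C (n = 3). It covered every gene whose value reached 50 in 3 or more of these libraries. Of 17050 genes in the table, 6443 met this rule (37.8%), among them 5092 that reached 50 in all 6 libraries. At the edge of the rule, 329 genes reached 50 in 3 libraries and 381 genes reached it in 2. A value is the number of reads of a gene per 10000000 mapped reads, so a value of 50 stood for 9.26 to 15.8 reads.

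Every library, of either time, came from animals of one genotype, with y,w/+ and UAS-RedStinger/+ together with 71G10/UAS-HR51 RNAi, reared at 25 °C, with males and females taken at random. The 71G10 driver, active in γ neurons, labelled the neurons with a red nuclear fluorescent protein and, in the same cells, drove the hairpin against Hr51. This gene, also known as unfulfilled, encodes a nuclear receptor. Cells were sorted by their red fluorescence from dissociated brains, 1000 per library, and their polyadenylated RNA was read from the 3′ end by MARS-seq. Both times carry the RNA interference and no library of a control genotype was analysed here, so a difference between the times is a difference between stages of these perturbed neurons. The labels do not say whether the replicates came from separate dissections, so p-values measure the spread between these libraries, which may be technical.

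During metamorphosis γ neurons dismantle the larval branches of their axons and then extend new, medial branches. Pruning needs the steroid hormone ecdysone, read by the receptor EcR with its partner usp, and EcR levels in turn depend on TGF-β signalling through the receptor Babo. Outgrowth after pruning is a separate step that needs Hr51 and growth through the TOR kinase. The cell-surface protein Dpr12 of γ neurons, binding DIP-delta on dopaminergic neurons, is needed to form the distal zones of the adult γ lobe.

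The 6 libraries held 1852941 to 3160320 mapped reads. To check the sort, the summed values of 15 Kenyon cell markers ran from 278484 to 307555 at 12 h and from 317479 to 345766 at 24 h. Those of 11 pan-neuronal markers ran from 136972 to 147217 and from 179111 to 225468. Of these sums, fne held 53645, 59661 and 51167 in A, B and C of 12 h and 76872, 98636 and 78579 in those of 24 h. The 11 markers include nrv3 and Rbp9, both called higher below, so their sum is not independent of those calls. Glial markers summed to 2682 to 4010 at 12 h and 1845 to 3167 at 24 h, most of it nrv2, with repo at 0 in 3 of the 6 libraries. Hemocyte markers summed to 254 to 475 and 209 to 828, with Hml, NimC1, He, eater and vkg at 0 in all 6. Muscle markers summed to 4666 to 8513 and 7180 to 8996, with Mhc, Mlc1 and wupA at 0. Photoreceptor markers were higher without overlap at 24 h, 2578 to 4112 against 5281 to 6559, nearly all of it norpA, with Arr2 and boss at 0 in all 6 libraries and ninaE in 5. Fat body markers were lower without overlap, 117 to 270 against 3.164 to 61.7, most of it Lsp1gamma, with Lsp1alpha, Lsp1beta, Fbp1, Fbp2 and Yp1 at 0. The part of either in the results below was not tested. Markers of other transmitter types summed to 793 to 1021 and 643 to 1145. Markers of dividing cells summed to 305 to 453 and 50.8 to 265. The glial gene bnb and the hemocyte gene Pxn, at 56.6, 10.04 and 16.2 at 12 h and 107, 475 and 545 at 24 h for Pxn, were called higher without replicate A of 12 h (adjusted p = 0.0179 and 0.0298) and not with it (0.202 and 0.0936). In these pools of sorted cells, fewer cells of a type and less RNA per cell cannot be told apart.

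Replicate A of 12 h was nearer to B and C of 6 h than to the other libraries of its time. Across the 6443 genes, its log2 levels correlated at 0.90 with the mean of replicates B and C of 6 h and at 0.86 with the mean of the other 12 h libraries. Replicate B of 12 h correlated less with 6 h (0.85) than with the other 12 h libraries (0.89), and so did C (0.81 and 0.86). Within 12 h, A correlated at 0.84 with B and 0.81 with C, and B with C at 0.84, so A was no farther from its time than C. Replicate A of 6 h, which correlated at 0.76 and 0.72 with B and C of its time and at 0.89 with B of 18 h, was left out of that reference. Replicate A of 6 h correlated with replicate A of 12 h at 0.77. By these levels replicate A of 6 h was nearer to later libraries than to B and C of its time. Replicate A of 12 h was nearer to B and C of 6 h than to the other 12 h libraries. The labels were kept as given, and whether they are right was not tested, so each 12 h value of replicate A below is that of the library labelled so. Osiris and cuticle genes, known from cuticle-forming epidermis, summed to 2281 in replicate A of 12 h and to 211 and 297 in B and C. The 3 libraries of 24 h correlated with each other at 0.86 to 0.88. Values without replicate A of 12 h are therefore given where leaving it out moved a called gene by more than 1.5 times. They are also given for a part of the genes whose call changed without it, and not all of those are named.

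Between the 2 times, 64 of the 6443 genes passed the test (limma with an intensity trend on log2(value + 1), Benjamini-Hochberg adjusted p under 0.05), which is 0.993% of the genes tested. Of these, 29 rose (0.45%) and 35 fell (0.543%), by 0.97 to 6.20 and 0.94 to 4.03 on the log2 scale. Counts of called members of gene lists below stand against these 2 shares. All 64 moved in one direction in A, B and C, and for all 64 the 3 libraries of one time lay wholly on one side of the other 3. Such separation was common among all genes tested, with 509 separated upward (7.9%) and 681 downward (10.6%). The count rested on single libraries of 24 h: limma called 0 genes without replicate B of 24 h (595 with an unadjusted p under 0.05) and 0 without replicate C of 24 h (615), with smallest adjusted p of 0.0655 and 0.103, and 30 without replicate A of 24 h. In both of these fits the adjusted p of every gene was therefore above 0.05. Without replicate A of 12 h it called 92, of which 60 were among the 64; the adjusted p of CG11791, CG7523, Aps and CG42402 then rose to between 0.0575 and 0.0740.

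Further limits touch the same count. A fit of all 12 libraries, which shares one estimate of the spread over 4 times, called 0 genes (552 with an unadjusted p under 0.05, smallest adjusted p 0.427), while on the reads recovered from the values edgeR called 77 and DESeq2 215, including 60 and 63 of the 64. Of the 64 called genes, 12 overlapped another gene with reads on the same strand and 7 only on the opposite strand, and the assignment of such reads was not given in the sources used here, so these values are uncertain. In the text below the 3 values of a time are always in the order of replicates A, B and C, and positions are those of the deposited table (dm6), counted from 1.

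**Figure D1:**
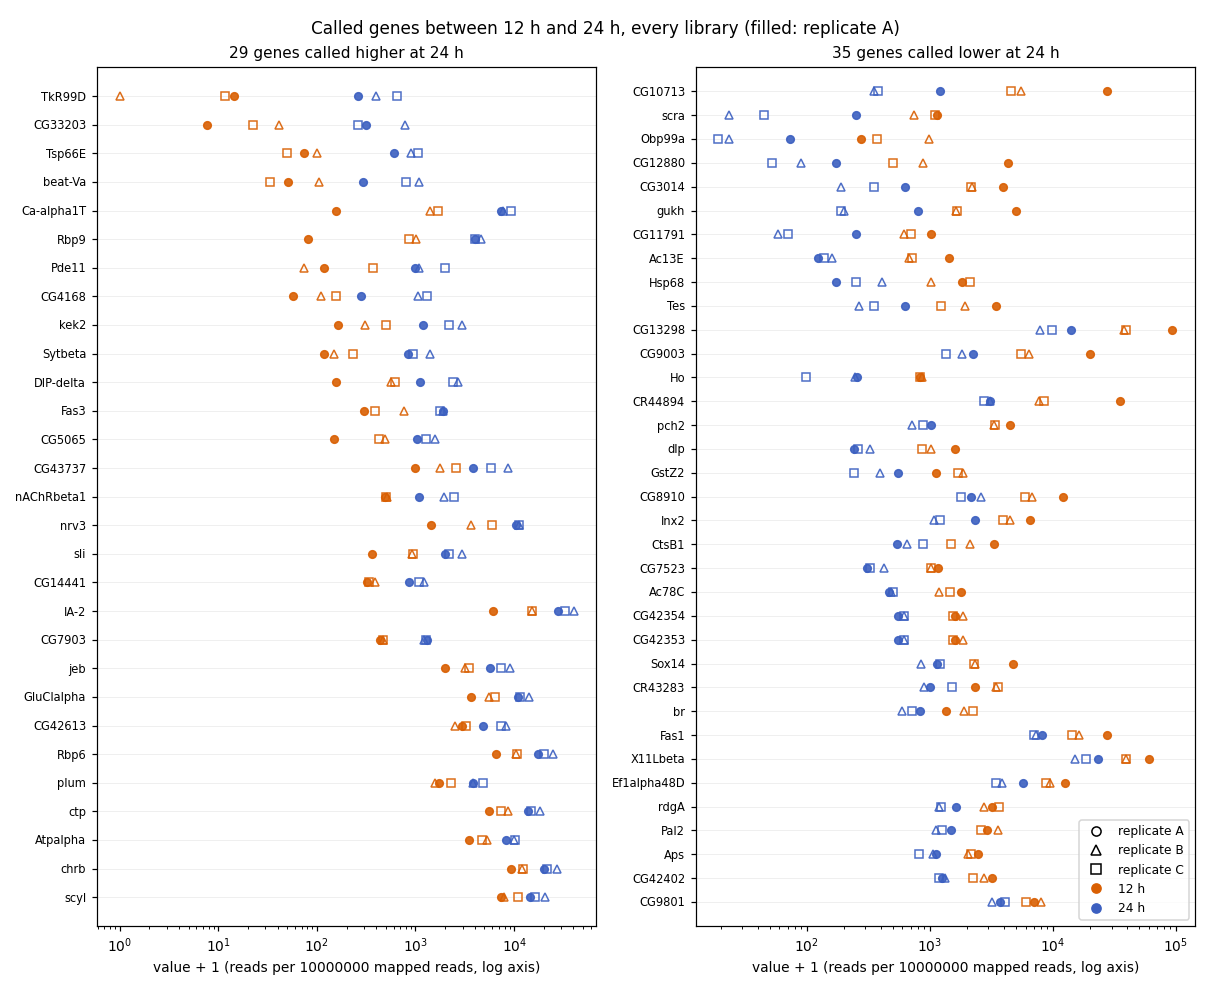
Values (reads per 10000000 mapped reads, plus 1, log axis) of the 29 genes called higher and the 35 called lower at 24 h, one symbol per library (orange 12 h, blue 24 h, filled circles replicate A, triangles B, squares C). In each row the 3 libraries of 24 h lie on one side of the 3 of 12 h; for 23 of the 29 higher and 24 of the 35 lower genes, replicate A of 12 h is the 12 h library farthest from 24 h.

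The plot of the called genes by library shows the separation and also the place of replicate A of 12 h. In the called genes that rose, the median change was 2.29 in replicate A and 1.67 for the mean of B and C, and in those that fell −1.92 and −1.67.

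Hr51, the target of the RNA interference (2R:15331325-15339384, plus strand), was read in every library, with 5045, 3741 and 3794 at 12 h and 3256, 2813 and 3646 at 24 h. All 3 values of 24 h were below the 3 of 12 h, but the change of −0.37 ± 0.22 (SE) did not pass limma's test (adjusted p = 0.528). Without a control genotype these values do not measure the knockdown.

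Among ecdysone response genes, 2 transcription factor genes fell from 12 to 24 h. Sox14, an ecdysone-induced factor that γ neurons need for pruning (2R:23978801-23985177, plus strand), stood at 4726, 2326 and 2283 at 12 h and 1148, 845 and 1209 at 24 h. It fell by 1.47 on the log2 scale (SE 0.31, limma adjusted p = 0.0423), and by 1.13 without replicate A of 12 h (adjusted p = 0.049). In a limma fit of replicates B and C alone it was not called (−1.19, adjusted p = 0.0748). The zinc finger factor br, which marks the larval to pupal transition, stood at 1359, 1901 and 2250.5 at 12 h and 837, 589 and 715 at 24 h, a change of −1.35 ± 0.29 (SE) (adjusted p = 0.0489; −1.55 and 0.0137 without replicate A of 12 h). Both were lower in every library of 24 h than in any of 12 h.

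The receptor itself did not pass the test. EcR was at 1665, 4464 and 4566 at 12 h and 4945, 3822 and 4213 at 24 h, so that replicate A moved by 1.57 and B and C by −0.22 and −0.12 on the log2 scale. Its partner usp was at 1685, 2055 and 1873 at 12 h and 1005, 1111 and 959 at 24 h, lower in every library of 24 h, with a change of −0.87 ± 0.25 (SE) that did not pass (adjusted p = 0.154). The clock and ecdysone gene vri was also lower in every library of 24 h, at 7816, 3955 and 2283 at 12 h and 1755, 1402 and 1459.9 at 24 h (−1.43, adjusted p = 0.0897). Besides usp and Hr51, 2 further nuclear receptor genes were not separated in this way: Eip75B, a heme-binding receptor, was at 47094, 60742 and 62458 at 12 h and 53143, 43318 and 40542 at 24 h (adjusted p = 0.52), and Hr39 at 1022, 1118 and 691 at 12 h and 1306, 1338 and 1053 at 24 h (adjusted p = 0.618).

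For 3 ecdysone response genes a single library stood apart. Kr-h1, a zinc finger factor of the juvenile hormone and ecdysone response, was at 2628, 80.3 and 151 at 12 h and 107, 69.6 and 178 at 24 h, high in replicate A of 12 h alone. Blimp-1, a transcriptional repressor that times the prepupal stage, was at 706, 11729 and 11609 at 12 h and 8502, 13349.9 and 11403 at 24 h, and Eip93F, which specifies adult development, at 6018, 20908 and 16519.7 at 12 h and 22678, 17656 and 17606 at 24 h, both low in replicate A of 12 h alone. At 6 h, Kr-h1 stood at 8.62, 6675 and 5491, Blimp-1 at 9657, 618 and 319 and Eip93F at 10321, 3779 and 4214. In all 3 genes replicate A of 12 h lay away from B and C of its time toward the values of B and C of 6 h, and replicate A of 6 h lay away from B and C of 6 h toward those of B and C of 12 h. Without replicate A of 12 h, the changes of Blimp-1 and Eip93F went from 1.25 to −0.10 and from 0.59 to 0.05. The prepupal receptor gene ftz-f1 did not reach the level for testing, with 23.3, 6.69 and 27.0 at 12 h and 45.9, 269 and 465 at 24 h.

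**Figure D2:**
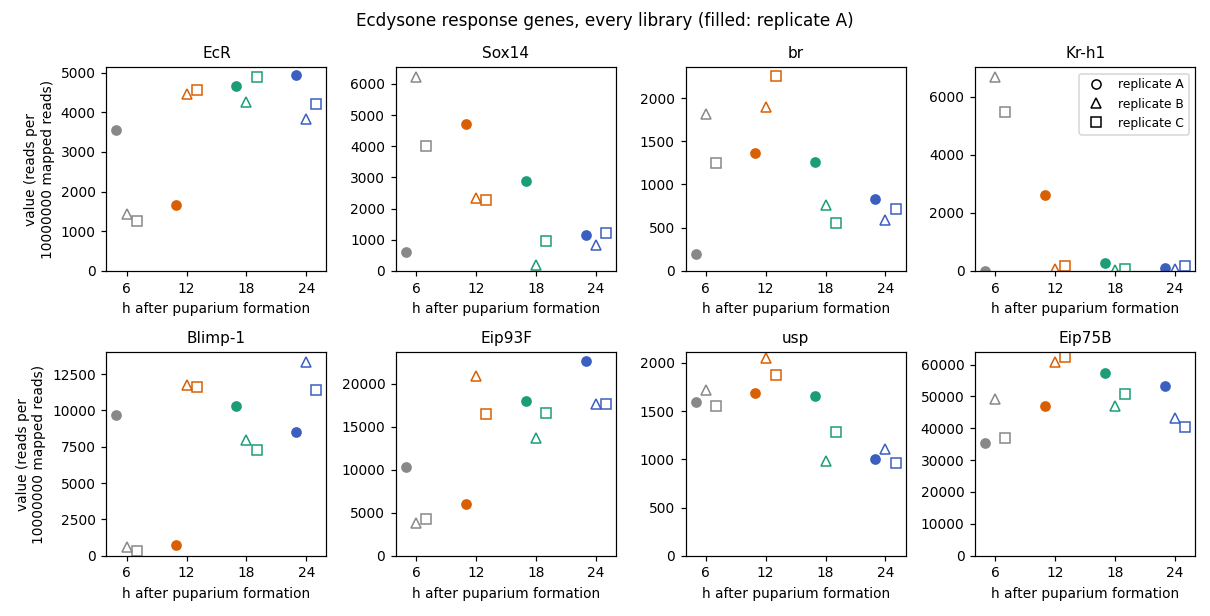
Values (reads per 10000000 mapped reads, linear axes from 0) of 8 ecdysone response genes in all 12 libraries, by hours after puparium formation (filled circles replicate A, triangles B, squares C). Sox14 and br are low in all 3 libraries of 24 h, while EcR, Kr-h1, Blimp-1 and Eip93F differ at 12 h between replicate A and the other replicates.

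The panels of the ecdysone genes also hold the 6 h and 18 h libraries, which were not part of this test. Of 27 ecdysone genes listed, 22 were tested, of which 0 rose and 2 fell. Without overlap, 1 was higher and 6 were lower, against 7.9% and 10.6% of all genes tested. The median change of the 22 was −0.40, against −0.05 over all genes tested. Their median was −0.68 in replicate A (0.0019 over all genes tested) and −0.18 for the mean of B and C (−0.087).

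Several genes of cell-surface proteins that guide contact between neurons rose. DIP-delta, the receptor for Dpr12 (3L:5424109-5442399, plus strand), stood at 157, 566 and 615 at 12 h and 1107, 2693 and 2411 at 24 h. All libraries of 24 h were above all of 12 h, with a change of 2.34 ± 0.50 (SE) (limma adjusted p = 0.0464) and of 1.71 without replicate A of 12 h (adjusted p = 0.0179). The gene of its ligand, dpr12, was at 709, 616 and 858 at 12 h and 954, 939.8 and 1322 at 24 h and did not pass (0.55, adjusted p = 0.476).

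Of 11 DIP genes, which encode immunoglobulin-domain receptors of Dpr proteins, 7 were tested. DIP-delta was the only one called with 6 libraries. Without overlap, 5 of the 7 were higher at 24 h and 0 lower, against 7.9% and 10.6% of all genes tested. The median change of the 7 was 2.25, with medians of 2.81 in replicate A and 1.99 for the mean of B and C. DIP-gamma was at 353, 1603 and 2823 at 12 h and 3843, 6578 and 6802 at 24 h, a change of 2.25 that missed the threshold (adjusted p = 0.0876). DIP-theta was at 0, 56.9 and 97.1 at 12 h and 311, 699 and 763 at 24 h (adjusted p = 0.138), and DIP-beta at 6.66, 114 and 103 at 12 h and 393, 364 and 516 at 24 h (adjusted p = 0.154). Without replicate A of 12 h, DIP-gamma and DIP-theta were called as well, with changes of 1.39 (adjusted p = 0.0144) and 2.87 (adjusted p = 0.0183). The members not tested were all below 50 in at least 4 of the 6 libraries.

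Of the 21 dpr genes, 19 were tested and 0 were called, with a median change of 0.63 (1.05 in replicate A and 0.50 for the mean of B and C). Without overlap, 6 were higher and 1 was lower (7.9% and 10.6% over all genes tested). The smallest p-values belonged to dpr6, at 2091, 3634 and 3902 at 12 h and 4939.7, 6006 and 5981 at 24 h (adjusted p = 0.168), and to dpr15 (adjusted p = 0.183), which had 1 read in replicate A, a value of 97.0 in B and 0 in C at 12 h, and 424, 301 and 131 at 24 h.

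All 22 genes of the Beaten path and Sidestep families, partners in axon and muscle recognition, were tested. Of these, beat-Va rose, from 49.95, 103.7 and 32.4 at 12 h to 291, 1095 and 803 at 24 h (3.50 ± 0.65 (SE), adjusted p = 0.0266). Without overlap, 9 were higher and 1 was lower (7.9% and 10.6% over all genes tested). The median change of the 22 was 0.99, with medians of 1.12 in replicate A and 0.58 for the mean of B and C. The gene side was at 703, 522 and 621 at 12 h and 862, 2592 and 2488 at 24 h and was not called with 6 libraries (1.54, adjusted p = 0.1) but was without replicate A of 12 h (1.64, adjusted p = 0.0472). The change of beat-Ic rested on replicate A, with 79.9, 5993 and 4868 at 12 h and 7496, 9202 and 7328 at 24 h.

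Among other adhesion proteins, 2 rose and 1 fell of 33 tested (0.45% and 0.543% over all genes tested). Of the 33, 9 were higher and 1 lower without overlap (7.9% and 10.6% over all genes tested). The leucine-rich repeat protein gene kek2 stood at 163, 308 and 507 at 12 h and 1194, 2959 and 2175 at 24 h, a change of 2.74 ± 0.44 (SE) (adjusted p = 0.0214). The homophilic adhesion gene Fas3 stood at 299.7, 769.6 and 389 at 12 h and 1919, 1889 and 1779 at 24 h (2.05 ± 0.35 (SE), adjusted p = 0.0266). Fas1, an adhesion protein of axon bundles, fell from 27405, 16293 and 14361 at 12 h to 8109, 7313 and 7005 at 24 h (−1.32 ± 0.23 (SE), adjusted p = 0.0266). Fas2, an adhesion marker of mushroom body axons, did not pass, with 9352, 11234 and 12509.8 at 12 h and 13069, 12078 and 11472 at 24 h (adjusted p = 0.789).

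Of 29 guidance genes tested, 1 rose and 1 fell (0.45% and 0.543% over all genes tested). Among the 29, 7 were higher and 3 lower without overlap (7.9% and 10.6% over all genes tested). The Robo ligand gene sli stood at 359.7, 920.2 and 944 at 12 h and 1980.0, 2962 and 2204 at 24 h (1.79 ± 0.37 (SE), adjusted p = 0.0348), with each library of 24 h above the 12 h values. The glypican gene dlp, which acts in Wnt and Hedgehog signalling, stood at 1595, 1014 and 863 at 12 h and 239.8, 323 and 258 at 24 h (−2.04 ± 0.36 (SE), adjusted p = 0.0266). The teneurin gene Ten-m was at 359.7, 1412 and 2596 at 12 h and 3251, 3180.1 and 3065 at 24 h and otk, a Plexin co-receptor gene, at 3317, 2687 and 2202 at 12 h and 1628, 1168 and 1024 at 24 h. Both were separated between the times, upward and downward, without passing the test (adjusted p = 0.241 and 0.0768).

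Several genes of excitability and ion transport rose. In the same libraries the summed pan-neuronal markers were higher at 24 h, as given above, and their part in these results was not tested. Ca-alpha1T, the pore of the T-type calcium channel (X:6104085-6192483, minus strand), stood at 157, 1395 and 1700.0 at 12 h and 7394, 7676 and 9253 at 24 h. Its change was 3.49 ± 0.65 (SE) (adjusted p = 0.0266), and 2.39 without replicate A of 12 h (adjusted p = 6.59e-06), where the value was the lowest of the 6. The sodium channel gene para was at 1226, 5003 and 4312 at 12 h and 5021, 7284 and 7709.7 at 24 h and did not pass (1.14, adjusted p = 0.272). Of 11 sodium, calcium and NALCN channel genes tested, 1 rose and 0 fell. Without overlap, 4 were higher and 0 lower (7.9% and 10.6% over all genes tested).

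The sodium pump rose in both of its neuronal subunits. Atpalpha, the catalytic subunit, stood at 3497, 5250.3 and 4738 at 12 h and 8292, 9891 and 10219 at 24 h (1.09 ± 0.21 (SE), adjusted p = 0.0291). The β subunit gene nrv3 stood at 1432, 3631 and 6017 at 12 h and 10528, 11132 and 11094 at 24 h (1.79 ± 0.38 (SE), adjusted p = 0.0464), with the 24 h libraries within a narrow range. Ndae1, a sodium-dependent anion exchanger gene, was at 14567, 1871 and 2596 at 12 h and 944, 937 and 1100.3 at 24 h, lower at 24 h in each replicate without passing with 6 libraries (−2.06, adjusted p = 0.125). It was called without replicate A of 12 h, where the change was −1.15 (adjusted p = 0.0461).

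Of 17 acetylcholine, GABA and glutamate receptor genes tested, 2 rose and 0 fell (0.45% and 0.543% over all genes tested). Among the 17, 3 were higher and 0 lower without overlap (7.9% and 10.6% over all genes tested). nAChRbeta1, a nicotinic acetylcholine receptor subunit, stood at 486, 512 and 497 at 12 h and 1077, 1965 and 2451 at 24 h (1.79 ± 0.33 (SE), adjusted p = 0.0266). GluClalpha, the glutamate-gated chloride channel, stood at 3663, 5605 and 6411 at 12 h and 10997, 14166 and 11465 at 24 h (1.25 ± 0.23 (SE), adjusted p = 0.0266). For both, the lowest library of 24 h lay well above the highest of 12 h. The subunit gene nAChRalpha7 was at 819, 773 and 475 at 12 h and 1021, 2557 and 2393 at 24 h, with an adjusted p of 0.1 and of 0.0398 without replicate A of 12 h. The tachykinin receptor gene TkR99D rose from near the detection limit, 13.3, 0 and 10.8 at 12 h, to 260.3, 392 and 646 at 24 h (6.20 ± 1.25 (SE), adjusted p = 0.0334), and its change was 6.88 without replicate A of 12 h (adjusted p = 0.00891). Among the genes called with 6 libraries, TkR99D and CG33203 met the rule on values only through their 24 h libraries. A difference in them follows partly from the rule.

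Synaptic and secretory genes gave 1 call among 42 tested in the synaptic list, with a median change of 0.29. Without overlap, 11 were higher and 4 lower (7.9% and 10.6% over all genes tested). The called gene was Sytbeta, of the synaptotagmin family of calcium sensors, at 117, 147 and 232 at 12 h and 837, 1411 and 933 at 24 h (2.70 ± 0.41 (SE), adjusted p = 0.0162). IA-2, a transmembrane protein of dense-core vesicles, rose from 6108, 15119 and 15100.3 at 12 h to 27638, 40154 and 32731 at 24 h (1.57 ± 0.30 (SE), adjusted p = 0.0291), and jeb, the secreted ligand of the receptor kinase Alk, from 2005, 3182 and 3497 to 5700.1, 8989.6 and 7423 (1.36 ± 0.26 (SE), adjusted p = 0.0268). Pal2, an enzyme of peptide amidation, moved the other way, from 2894, 3604 and 2617 to 1479.9, 1120.1 and 1246 (−1.24 ± 0.24 (SE), adjusted p = 0.0298). The 4 genes were separated between the times in every library.

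Enzymes of second messengers moved in different directions. Both adenylyl cyclase genes called fell: Ac13E stood at 1435, 673 and 712 at 12 h and 122, 158 and 138 at 24 h (−2.66 ± 0.43 (SE), adjusted p = 0.0214). Ac78C stood at 1782, 1178 and 1452 at 12 h and 469, 481 and 498 at 24 h (−1.59 ± 0.29 (SE), adjusted p = 0.0266). The cyclic nucleotide phosphodiesterase gene Pde11 rose, with 117, 73.6 and 367 at 12 h and 985, 1085 and 1990.1 at 24 h (3.12 ± 0.54 (SE), adjusted p = 0.0266). The diacylglycerol kinase gene rdgA fell, with 3180.4, 2751 and 3632 at 12 h and 1623, 1180.3 and 1242 at 24 h (−1.25 ± 0.24 (SE), adjusted p = 0.0291). In the list of 24 tested genes of this kind, 0 rose and 2 fell, since Pde11 and rdgA were not among its members. Among the 24, 6 were higher and 3 lower without overlap (7.9% and 10.6% over all genes tested).

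Of 23 neuronal RNA-binding protein genes tested, 1 rose, Rbp9, and 0 fell. Without overlap, 7 were higher and 3 lower (7.9% and 10.6% over all genes tested). Rbp9, of the ELAV family, stood at 79.9, 1011 and 853 at 12 h and 3970.2, 4648 and 4009 at 24 h, a change of 3.3497 ± 0.70 (SE) (adjusted p = 0.0392) that was 2.18 without replicate A of 12 h (adjusted p = 6e-05). Rbp6, of the Musashi family and not in that list, stood at 6621, 10400.3 and 10605 at 12 h and 17677, 24953 and 20089.6 at 24 h (1.20 ± 0.22 (SE), adjusted p = 0.0266). Both were higher in each library of 24 h, and replicate A of 12 h was the lowest of the 6 for both.

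The stress-induced TOR inhibitor genes scyl and chrb, homologues of vertebrate REDD1, rose together. The gene scyl stood at 7290.0, 7951 and 10869 at 12 h and 14349.7, 20564 and 16168 at 24 h (0.97 ± 0.21 (SE), adjusted p = 0.0489) and chrb at 9375, 12063 and 12418 at 12 h and 20004, 26997 and 21332 at 24 h (1.01 ± 0.19 (SE), adjusted p = 0.028). Of 19 genes of the TOR and insulin pathway tested, 0 were called, with a median change of −0.12. Without overlap, where 7.9% of all genes tested were higher and 10.6% lower, 0 of the 19 were higher and 5 lower. Among these rictor, a subunit of the TOR complex upstream of Akt, was at 709, 984 and 1128 at 12 h and 373, 582 and 472 at 24 h (adjusted p = 0.241), and the kinase gene Pdk1 at 3827, 4715 and 3669.8 at 12 h and 2735, 2446 and 2843 at 24 h (adjusted p = 0.254).

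Of 13 genes tested in the TGF-β pathway that acts upstream of EcR, 2 were higher and 1 lower without overlap (7.9% and 10.6% over all genes tested). The 1 gene called was plum. This immunoglobulin protein, which γ neurons need for pruning, stood at 1742, 1586 and 2283 at 12 h and 3858, 3794 and 4826 at 24 h (1.16 ± 0.23 (SE), adjusted p = 0.031), higher in each library of 24 h. The receptor gene babo was at 1312, 1379 and 1700.0 at 12 h and 1924, 1225 and 1627 at 24 h (adjusted p = 0.919) and the Smad gene Smox at 12992, 12080.1 and 11247 at 12 h and 10696, 8322 and 10499 at 24 h (adjusted p = 0.538), the latter lower in each library of 24 h without passing.

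The other genes that rose included ctp, a dynein light chain, at 5548, 8590.0 and 7356 at 12 h and 13681, 18381 and 14675 at 24 h (1.13, adjusted p = 0.0266), and the tetraspanin gene Tsp66E, at 73.3, 100.4 and 48.6 at 12 h and 607, 899 and 1053 at 24 h (3.53, adjusted p = 0.012). The rest carry CG numbers and no role is given to them here. Their values were as follows: CG43737 had 999, 1770.2 and 2590.5 at 12 h and 3832, 8591 and 5861 at 24 h. For CG42613 they were 2934, 2513 and 3287 at 12 h and 4802, 8354 and 7430.1 at 24 h, in a gene that overlaps CG43732 on the same strand. CG5065 had 149.9, 495 and 421 at 12 h and 1046, 1579 and 1282 at 24 h, with replicate A of 12 h lowest. These 3 rose by 1.80, 1.21 and 2.02 on the log2 scale.

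CG4168 was at 56.6, 110.4 and 157 at 12 h and 281, 1066 and 1315 at 24 h, with 24 h replicate A well below B and C. CG33203 was at 6.66, 40.2 and 21.6 at 12 h and 316, 775 and 258 at 24 h, with less than 50 in all libraries of 12 h. CG14441 was at 323, 388 and 335 at 12 h and 862, 1209 and 1097 at 24 h, with a tight 12 h group. CG7903 was at 439.6, 465 and 469.5 at 12 h and 1296, 1225 and 1275 at 24 h, and both of its groups were tight. The log2 changes of these 4 were 2.87, 4.38, 1.59 and 1.46, with adjusted p between 0.0298 and 0.0489. Without replicate A of 12 h the change of CG33203 was 3.71 (adjusted p = 0.0183).

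Of the genes that fell, CG10713 (3L:13428839-13435229, minus strand) had the largest decrease among those called with 6 libraries, but not without replicate A of 12 h, where Obp99a (−4.25) and scra (−3.84) fell by more. Its values were 27645, 5555 and 4582 at 12 h and 1199, 351 and 378 at 24 h, a change of −4.03 ± 0.59 (SE) (adjusted p = 0.0132) and of −3.22 without replicate A of 12 h (adjusted p = 0.000509). All 3 replicates fell steeply, and replicate A stayed the highest at both times. The odorant-binding protein gene Obp99a stood at 273, 977 and 372 at 12 h and 71.4, 22.1 and 18.2 at 24 h (−3.87, adjusted p = 0.031). CG12880 stood at 4339, 883 and 502 at 12 h and 174, 88.6 and 50.8 at 24 h (−3.74, adjusted p = 0.0268), and its change was −2.84 without replicate A of 12 h (adjusted p = 0.0398).

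Next among the genes that fell, the anillin gene scra, known for its role in cytokinesis, stood at 1146, 743 and 1112 at 12 h and 250.0, 22.1 and 43.6 at 24 h (−3.95 ± 0.73 (SE), adjusted p = 0.0266). The scaffold gene gukh, whose product binds Discs large, stood at 4972, 1619.6 and 1657 at 12 h and 801, 199 and 189 at 24 h (−2.92 ± 0.55 (SE), adjusted p = 0.0272). Within the 24 h group, replicate A of both genes stood above B and C, though still below all of 12 h. The LIM domain gene Tes stood at 3450.2, 1938 and 1225 at 12 h and 623, 263 and 349 at 24 h (−2.39, adjusted p = 0.0266). The gap junction gene Inx2 stood at 6577, 4461 and 3907 at 12 h and 2317, 1073 and 1217 at 24 h (−1.75, adjusted p = 0.0266). X11Lbeta, an adaptor of the amyloid precursor protein Appl, stood at 60722, 39021 and 39553 at 12 h and 23484, 15033 and 18669.7 at 24 h (−1.28, adjusted p = 0.0266). Jupiter, a microtubule-associated protein gene, was at 45066, 17039 and 22273 at 12 h and 12334, 12100.0 and 11399 at 24 h and was not called with 6 libraries (adjusted p = 0.1) but was without replicate A of 12 h (−0.71, adjusted p = 0.0398).

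Of 23 heat shock and stress genes tested, 1 fell, Hsp68, and 0 rose. Without overlap, 2 were higher and 7 lower (7.9% and 10.6% over all genes tested). The inducible chaperone gene Hsp68 stood at 1815, 1024 and 2121 at 12 h and 174, 405 and 251 at 24 h (−2.60 ± 0.40 (SE), adjusted p = 0.0162). The Hsp90 gene Hsp83 was at 34975, 33717 and 35927 at 12 h and 21779.8, 21991 and 21695 at 24 h, separated by narrow groups but not called with 6 libraries (−0.68, adjusted p = 0.0725), and called without replicate A of 12 h (−0.67, adjusted p = 0.0211). The heme oxygenase gene Ho stood at 829, 857 and 826 at 12 h and 255, 244 and 98.1 at 24 h (−2.19, adjusted p = 0.0322). Ho and Hsp68 were low in each library of 24 h. The glutathione transferase gene GstZ2, which fell, stood at 1119, 1861 and 1684 at 12 h and 551, 396 and 243 at 24 h (−2.01, adjusted p = 0.0266). The lysosomal protease gene CtsB1, cathepsin B, stood at 3327, 2115 and 1489.5 at 12 h and 536, 652 and 872 at 24 h (−1.70, adjusted p = 0.0297).

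Among the called genes that fell and belong to no list above, the AAA+ ATPase gene pch2 had the smallest adjusted p of all genes tested (0.00928), with 4496, 3306 and 3373 at 12 h and 1031, 721 and 872 at 24 h (−2.09 ± 0.25 (SE)). CG13298, named Sf3b6 in the annotation and encoding a subunit of splicing factor SF3b, stood at 93748, 37696 and 39127 at 12 h and 14146, 7901 and 9787 at 24 h (−2.33, adjusted p = 0.012). In both genes the 24 h libraries were separated from 12 h by a wide gap. The translation elongation factor gene Ef1alpha48D, which has a snoRNA gene on the same strand, stood at 12515, 9413 and 8737 at 12 h and 5695, 3854 and 3443 at 24 h (−1.26, adjusted p = 0.0266).

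The 2 called genes that do not code for protein both fell. CR43283, the long non-coding RNA cherub, stood at 2338, 3463 and 3557 at 12 h and 995, 902 and 1514 at 24 h (−1.47, adjusted p = 0.028). CR44894, annotated as an antisense RNA, stood at 35178, 7707 and 8543 at 12 h and 3082, 3079 and 2767 at 24 h (−2.15, and −1.45 without replicate A of 12 h). For cherub the 12 h value of replicate A was the lowest of its time, and for CR44894 it was the highest by far. CR44894 overlaps CG15309 on its own strand and 4 genes on the other, so its reads cannot be set apart from theirs here.

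Further genes that fell carry CG numbers. CG9003 was at 20125, 6368 and 5510.2 at 12 h and 2261, 1842 and 1344 at 24 h, highest in replicate A of 12 h. CG8910 was at 12036, 6746 and 5953 at 12 h and 2148, 2585 and 1790.3 at 24 h, and CG3014 at 3949.7, 2185 and 2180.3 at 12 h and 623, 189.9 and 352 at 24 h, again with replicate A of 12 h highest. These fell by 2.33, 1.87 and 2.94 on the log2 scale, and without replicate A of 12 h their changes were −1.74, −1.56 and −2.65. CG9801 was at 7080.2, 7961 and 6055 at 12 h and 3715, 3228 and 4067 at 24 h, the smallest of the called decreases (−0.94). CG42353 and CG42354 had identical values in all 6 libraries, 1612, 1874 and 1554 at 12 h and 546, 617 and 621 at 24 h, and count as 1 signal (−1.49). The 4 genes whose call was lost without replicate A of 12 h were lower in each library of 24 h than in any of 12 h. CG11791 was at 1026, 612 and 702 at 12 h and 250.0, 57.0 and 69.0 at 24 h and CG7523 at 1162, 1021 and 1025 at 12 h and 306, 427 and 323 at 24 h. Aps was at 2468, 2045 and 2175 at 12 h and 1123, 1069.5 and 821 at 24 h and CG42402 at 3174, 2767 and 2229 at 12 h and 1266, 1326 and 1177 at 24 h. Their changes with 6 libraries were −2.92, −1.61, −1.16 and −1.10.

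Several of the largest separated changes did not pass the test with 6 libraries. Separated genes that moved by 1 or more on the log2 scale and averaged 200 or more at the higher time numbered 162 upward and 245 downward, and of these 28 and 34 were called. Upward, the metallothionein gene CG43222 (MtnF) was at 0, 87.0 and 0 at 12 h and 311, 421 and 661 at 24 h (adjusted p = 0.0784), and Frq2, a calcium sensor of the frequenin family, at 0, 248 and 0 at 12 h and 286, 763 and 828 at 24 h (adjusted p = 0.125). The receptor gene of ecdysis triggering hormone, ETHR, was at 6.66, 30.1 and 0 at 12 h and 204, 339 and 454 at 24 h (adjusted p = 0.0764). Without replicate A of 12 h, CG43222 and ETHR were called (5.56 and 5.83, adjusted p = 0.0436 and 0.0362) and Frq2 was not (adjusted p = 0.113). ETHR met the rule on values only through its 24 h libraries, so a difference in it follows partly from the rule. Each of these 3 had a 12 h library without a read and no library of 24 h under 200. Downward, the peptide receptor gene RYa-R was at 616, 207 and 59.4 at 12 h and 0, 6.33 and 0 at 24 h (adjusted p = 0.146), the junctophilin gene jp at 309.7, 231 and 157 at 12 h and 71.4, 0 and 3.632 at 24 h (adjusted p = 0.183), and the serotonin receptor gene 5-HT2B at 459.6, 151 and 189 at 12 h and 10.2, 22.1 and 21.8 at 24 h (adjusted p = 0.0897). CG5958 was at 1022, 509 and 216 at 12 h and 5.103, 75.9 and 58.1 at 24 h (adjusted p = 0.078).

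Most gene lists held few calls or none. Of 40 gene lists, 22 had no called member, and 41 of the 64 called genes belonged to no list. Of 15 Kenyon cell markers tested 0 were called (median 0.05), with chinmo, a temporal factor, at 6338, 8071 and 9952 at 12 h and 10512, 8816 and 6824 at 24 h. Of 11 pan-neuronal markers 2 were called, both upward and both already named (nrv3 and Rbp9), with a median of 0.51. Without overlap, 7 of the 11 were higher and 0 lower (7.9% and 10.6% over all genes tested). In the list of temporal and Kenyon cell transcription factors, 1 gene fell (br) of 23 tested. Among the 23, 4 were higher and 5 lower without overlap. The homeodomain gene pros was at 67379, 81446 and 86419 at 12 h and 128219, 131841 and 117890.0 at 24 h, separated between the times and called without replicate A of 12 h (adjusted p = 0.0768 with 6 libraries and 0.0231 without it). The zinc finger gene nerfin-1 was at 1219, 171 and 421 at 12 h and 148, 22.1 and 39.9 at 24 h and the RNA-binding protein gene Imp at 25797, 16219.5 and 16120.3 at 12 h and 12125, 10366 and 11076 at 24 h, both lower in each library of 24 h without passing (adjusted p = 0.13 and 0.138).

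In the lists of neuronal RNA-binding proteins (23 tested), sodium pump and transporters (13), monoamine, muscarinic and neuropeptide receptors (18) and neuropeptides and secretion (4), the members called with 6 libraries were Rbp9, Atpalpha and nrv3, TkR99D, and Pal2. All but Pal2 rose. Without replicate A of 12 h, fne, blot and DopEcR of these lists were called higher as well (limma adjusted p = 0.0429, 0.0498 and 0.0398), and Ndae1 lower, as given above. Potassium and leak channels (15 tested), microtubule genes (24), clock genes (10) and dosage compensation genes (8) had 0 called. The lists of glia, hemocytes, fat body, muscle, photoreceptors, other transmitter types, dividing cells, and Osiris and cuticle genes each had 1 or 2 members tested and 0 called with 6 libraries.

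Genes of energy metabolism gave 0 calls with 6 libraries. Of 14 glycolysis genes tested 0 were called, and 0 were higher and 4 lower without overlap. Their median change was −0.62, with medians of −1.93 in replicate A and −0.12 for the mean of B and C. Tpi, triosephosphate isomerase, was at 3856, 669 and 842 at 12 h and 434, 427 and 450.3 at 24 h and Gapdh2 at 8675, 3952 and 3529.5 at 12 h and 1939, 2266 and 2705 at 24 h, with replicate A of 12 h far above the other 5 libraries for both. Of 44 oxidative phosphorylation genes 0 were called (median 0.26, with 0.51 in replicate A and 0.17 for the mean of B and C). Without overlap, 11 were higher and 1 was lower (7.9% and 10.6% over all genes tested). The mitochondrial adenine nucleotide carrier gene sesB was at 2321, 5240.3 and 4814 at 12 h and 8058, 8721 and 9184 at 24 h and was called without replicate A of 12 h (0.78, adjusted p = 0.0352), in a locus that overlaps Ant2 on the same strand.

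Cell death and degradation genes gave 0 calls. Among 8 tested genes of caspases, cell death and engulfment ligands, the median change was −0.79. Without overlap, 1 was higher and 4 were lower (7.9% and 10.6% over all genes tested). The initiator caspase gene Dronc was at 876, 612 and 523 at 12 h and 281, 256 and 352 at 24 h (adjusted p = 0.216) and the effector caspase gene Drice at 1142, 629 and 372 at 12 h and 148, 206 and 461 at 24 h (adjusted p = 0.274). The gene listed as l(1)G0193 (orion), which encodes a chemokine-like signal from γ neurons to astrocytes, was at 4739, 2747 and 3319 at 12 h and 2011, 1421 and 1892 at 24 h (adjusted p = 0.105). For Dronc and orion all libraries of 24 h were below those of 12 h, while for Drice replicate C was higher at 24 h than at 12 h. Of 16 autophagy genes 0 were called and 1 was lower without overlap (median −0.11), Atg7 at 929, 689 and 345 at 12 h and 199, 250.0 and 239.7 at 24 h. The 32 proteasome genes (median −0.17) and the 79 cytosolic ribosomal protein genes (median −0.0019) had 0 calls, beside a median of −0.05 over all genes. Of 28 pruning effectors such as ubiquitin and endocytic genes, 0 were called. Without overlap, where 7.9% of all genes tested were higher and 10.6% lower, 2 of the 28 were higher and 7 lower. Among the latter was the ubiquitin-activating enzyme gene Uba1, at 6081, 7141 and 7005 at 12 h and 5659, 4420.4 and 5426 at 24 h.

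**Figure D3:**
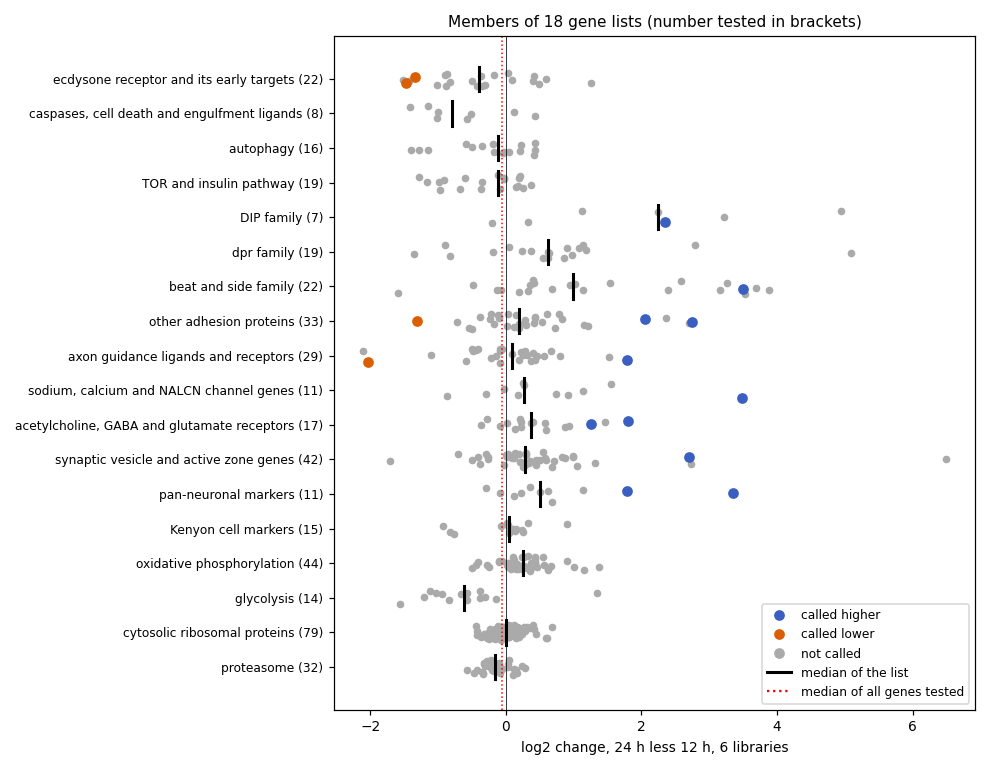
Log2 change from 12 to 24 h (6 libraries, horizontal axis) of each tested member of 18 gene lists, with the median of each list (black bar) and of all genes tested (dotted line at −0.05). Called members are blue (higher) or orange (lower); the DIP, beat and side lists lie mostly to the right, the caspase and glycolysis lists mostly to the left, and most points are grey, which means not called.

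The plot of the gene lists shows how few members of any list passed the test. The lists overlap in places and were put together with earlier results of these data known, so their medians describe the members and carry no test.

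Replicate A moved with B and C in most genes that changed clearly in B and C, and less often over all genes. Over all 6443 genes, A, B and C moved in one direction in 2218 (34.4%). Replicate A was the odd one out in 1502 genes (23.3%), B in 1366 (21.2%) and C in 1352 (20.98%). The log2 changes of A correlated across genes at 0.20 with those of B and 0.17 with those of C, and B correlated with C at 0.23. The letters share no library. For the 64 genes called with 6 libraries, a common direction of A, B and C is favoured by the test itself and is no separate evidence.

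Replicate A was also set against calls it took no part in. A fit of B and C alone (limma, 4 libraries) called 76 genes (1.18%), 41 higher and 35 lower at 24 h. In 70 of these (92.1%) the change in A had the same sign, 36 of the 41 higher and 34 of the 35 lower genes. The share was 56.2% over all genes tested, most of which moved little, so it is no like reference. Where B and C both moved by at least 1 in one direction, the share was 67.7%. Median changes were 1.73 in B and C and 1.94 in A for the higher genes, and −1.56 and −1.58 for the lower. Of the 76 genes, 49 were among the 64 called with 6 libraries. The 6 genes with the opposite sign in A were Cam, bnb, CG42594, Hsp26, jim and CG15765. Of these, Cam, bnb and CG42594 were called without replicate A of 12 h (adjusted p = 0.0362, 0.0179 and 0.0439). The calmodulin gene Cam was at 36457, 23106 and 23762 at 12 h and 32557, 48052 and 36537 at 24 h, and the glial gene bnb at 186, 13.4 and 5.397 at 12 h and 128, 551 and 465 at 24 h.

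**Figure D4:**
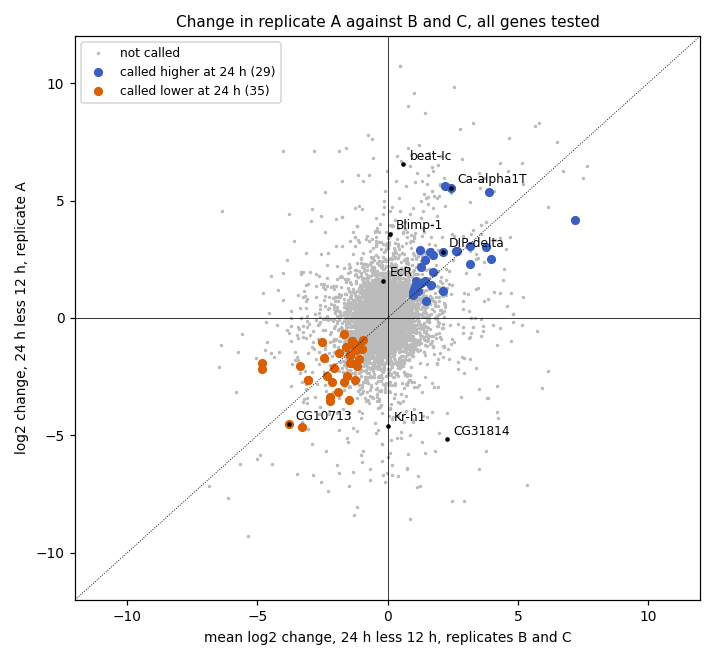
Log2 change from 12 to 24 h in replicate A (vertical) against the mean change in B and C (horizontal), one point per gene tested (grey, not called; blue and orange, the 29 and 35 genes called higher and lower). Called genes lie in the upper right and lower left; beat-Ic, Blimp-1 and Kr-h1 lie near the vertical axis, with a far larger change in A than in the mean of B and C.

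The plot of replicate A against B and C shows both the shared and the unshared changes. Where B and C both moved by at least 1 in one direction (501 genes, 190 higher and 311 lower), A had the same sign in 339 (67.7%), moved by at least 1 the same way in 209 and by at least 1 the opposite way in 61. Among the 61, DIP-kappa, listed as CG31814, was at 1315, 110.4 and 64.8 at 12 h and 35.7, 506 and 338 at 24 h, and the diacylglycerol kinase gene Dgk at 376, 141 and 70.2 at 12 h and 158, 424 and 468 at 24 h, both higher in B and C and lower in A. The replication clamp gene PCNA was at 66.6, 83.7 and 389 at 12 h and 229.6, 3.164 and 14.5 at 24 h, the zinc finger gene rn at 99.9, 485 and 318 at 12 h and 250.0, 111 and 43.6 at 24 h and CG8939 at 236, 355 and 486 at 12 h and 643, 88.6 and 65.4 at 24 h, lower in B and C and higher in A. None of these 5 passed the test (adjusted p from 0.52 to 0.964).

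Changes confined to one letter, at least 2 on the log2 scale in it and under 1 in the other letters, numbered 204 in A (3.17% of the genes tested, 108 higher and 96 lower), 99 in B and 152 in C. In 142 of the 204 genes of A (69.6%), the 12 h value of A was nearer to the 6 h values of B and C than to the other 12 h libraries, against 53 of 99 for B (53.5%) and 64 of 152 for C (42.1%). Examples with high values, chosen after their values were seen, were CG32206, at 783, 5043 and 5375 at 12 h and 9961, 9591 and 7993 at 24 h and called without replicate A of 12 h (0.81, adjusted p = 0.0298), and Pde9, a phosphodiesterase, at 7569.8, 1904 and 1289.8 at 12 h and 760.4, 975 and 991 at 24 h. HmgZ, a chromatin protein gene, was at 2861, 12552 and 12148 at 12 h and 16626, 15261 and 12231 at 24 h. In all 3, replicate A of 12 h stood alone while replicate A of 24 h lay with or near B and C.

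The 18 h libraries, which took no part in the test, lay between the 2 times for most called genes. The mean at 18 h was between the means of 12 and 24 h for 27 of the 29 genes that rose and for all 35 that fell, against 35.0% over all genes tested. Among all genes that moved by 1 or more on the log2 scale, called or not, the shares were 54.9% upward and 65.7% downward. A clear gap between the means of 12 and 24 h, by which genes are called, favours a mean at 18 h inside it. The share over all genes, most of which moved little, is therefore no like reference, and the place of 18 h is no separate evidence. DIP-delta, for example, stood at 885, 1696 and 1474 at 18 h, Ca-alpha1T at 1661, 5603 and 5896 and CG10713 at 5165, 882 and 1192. Sox14 stood at 2897, 173 and 969, where replicate B was below all libraries of 24 h.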

How the data were processed

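Per the labels' protocols, γ neurons were sorted into lysis buffer, 1000 cells per library, and RNA was read by MARS-seq, which tags 3′ ends and amplifies linearly. Of the tools, the submitters' processing notes list HISAT 0.1.5, HOMER and bcl2fastq, roles aside; the counting of strand, multiply mapped reads and molecular identifiers was not given in the sources used here. Per the file headers, the deposited signal is reads per gene scaled by the authors to 10000000 mapped reads, and 1 read was worth 3.164 to 5.397 units in the 6 libraries. All values above 0 (100%) were whole multiples of it within 0.02 reads, so depth and reads were recovered. The spread between libraries also holds amplification error, which these values cannot separate.

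The BDGP6 annotation gave a current symbol for 12870 genes under the table's name and for 3991 under an older one (98.9%), with identical coordinates for 96.8%. The test was limma 3.58.1 in R 4.3.3, intensity trend, on log2(value + 1), 6 libraries, 1 mean per time, two-sided, Benjamini-Hochberg over 6443 genes, called at an adjusted p under 0.05. Fold changes on this scale can understate changes of low genes. Alternatives were edgeR 4.0.16 and DESeq2 1.42.0 on recovered reads, and another pseudocount, other filters, scaling and sets of libraries. The fit was run on simulated reads with the same spread setting for every gene. That run does not show how the fit behaves at the spread of these libraries.

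The replicate letters were not taken as pairs: deviations of same-letter libraries from the mean of their time correlated at −0.01, 0.04 and 0.01. Genes were named by a rule: a set of ecdysone and remodelling genes, the 12 largest separated changes in each direction, genes in which A moved against B and C, up to 4 members per list, and all called genes; not all of these are printed. The members, the 40 gene lists and the fits of replicates B and C were chosen with earlier results of these data known. The result of 1 of these lists is not reported here. No sequences are printed.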

Additional observations from a re-analysis of the deposited data

How the results depend on the processing

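All 64 called genes kept their direction under every alternative and every left-out library. The number called did not hold as well. It was 64 with 6 libraries and 0 in the fit of all 12 libraries, where 552 genes had an unadjusted p under 0.05. DESeq2 called 215 (96 higher, 119 lower). Leaving out 1 library gave 0 to 92: 92, 47 and 75 without A, B and C of 12 h, and 30, 0 and 0 without A, B and C of 24 h. The other alternatives stayed within 1.5 times, from 60 (median-ratio scaling, 30 in each direction) to 95, the latter with the letter as a replicate block (46 higher, 49 lower, 60 of the 64 kept); the letters do not pair the libraries. B and C alone gave 76 with 4 libraries and 79 with the 8 of all times, keeping 49 and 44 of the 64.

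Some genes that were not called changed sign, and the cause was not tested. With B and C alone, from 4 or 8 libraries alike, the changes were −0.21 for chinmo, −0.12 for babo, 0.015 for Kr-h1, −0.076 for Eip93F, −0.010 for Fas2, −0.17 for EcR and 2.28 for CG31814. Leaving out 1 library in turn gave −0.062 to 0.27 for chinmo, −0.043 to 0.28 for babo, −0.070 to 0.66 for EcR, −0.10 to 1.93 for Blimp-1 and −1.05 to 1.11 for CG31814. Where a library is left out, the lone pair of its time is assumed to vary like the 3 libraries of the other time. Values near 50 rest on 9.26 to 15.8 reads, which limits the precision of low genes.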
